A study of Arabidopsis thaliana with 12 samples.

Results

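The genes described here are LDH (AT4G17260), the lactate dehydrogenase of Arabidopsis thaliana, and PDC2 (AT5G54960), a pyruvate decarboxylase. They were found by locus in the gene annotation of the Affymetrix ATH1 array, where each of them has 1 probe set (a group of short probes that together read 1 transcript), so that they are 2 of the 13355 genes with a probe set of their own, among 22746 probe sets tested. RNA came from whole Col:LUC seedlings, whose ecotype is Col-0. All seedlings grew for 10 days on B5, a plant culture medium, and spent 3 more days on fresh plates. The group B5 stayed on B5 and was untreated, the group B5+AA was treated on B5 with 50 µM antimycin A for 3 hours, the group NAA spent its 3 days on B5 with 4.5 µM NAA, a synthetic auxin, and was untreated, and the group NAA+AA had both. Each group holds 3 arrays, which the labels call biological triplicates. The growth note shared by all samples also names Attim17-1 seeds, although each label names Col:LUC, and a solvent control for antimycin A is not stated in the labels.

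LDH reduces pyruvate to lactate and oxidises NADH to NAD+ in the same step. PDC2 removes carbon dioxide from pyruvate, and the acetaldehyde it forms can be reduced to ethanol by alcohol dehydrogenase, again with oxidation of NADH. Both routes return NAD+ to glycolysis when the mitochondrial respiratory chain cannot, and in plants they are best known from flooded, oxygen-poor roots. Antimycin A blocks complex III of that chain while oxygen is still present.

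Antimycin A raised LDH on both media, about 13.3-fold on B5 and 9.49-fold on NAA. PDC2 rose with antimycin A on B5, by 1.73-fold, and was not called on NAA. NAA alone left neither gene past the threshold. These folds are on the scale of log2(intensity + 16), the scale of every fold change below, and a gene was called when limma's moderated test, adjusted over all 22746 probe sets by the Benjamini-Hochberg method, gave an adjusted p below 0.05.

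LDH read 132, 137 and 119 on the arrays of the B5 group and 2054, 1611 and 2145 on those of the B5+AA group. On NAA it read 171, 131 and 183 without antimycin A, and 1716, 1569.5 and 1689 with it. All 6 arrays with antimycin A stood above all 6 without, with a wide gap between the lowest treated and the highest untreated array. Group means were 129.7 ± 9.18 (B5), 1936 ± 286 (B5+AA), 162 ± 27.2 (NAA) and 1658 ± 78.1 (NAA+AA; SD, n = 3 each). From high to low the order was thus B5+AA, NAA+AA, NAA and B5. The ranges of the upper pair of groups overlapped, and so did those of the lower pair.

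PDC2 read 496, 475 and 469 on B5 and 862, 819 and 838 on B5 with antimycin A, 2 tight groups that did not overlap. On NAA without antimycin A it read 554, 397 and 740.4, and with antimycin A 737, 600.2 and 694. The untreated NAA arrays therefore ran from below the B5 group to above every NAA+AA array. Means were 479.7 ± 14.1 (B5), 839.9 ± 21.2 (B5+AA), 564 ± 172 (NAA) and 677 ± 70.1 (NAA+AA; SD, n = 3 each). The order of means, B5+AA, NAA+AA, NAA and B5, was the same as for LDH. NAA overlapped both of its neighbours in that order, while NAA+AA lay below B5+AA on every array.

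**Figure D1:**
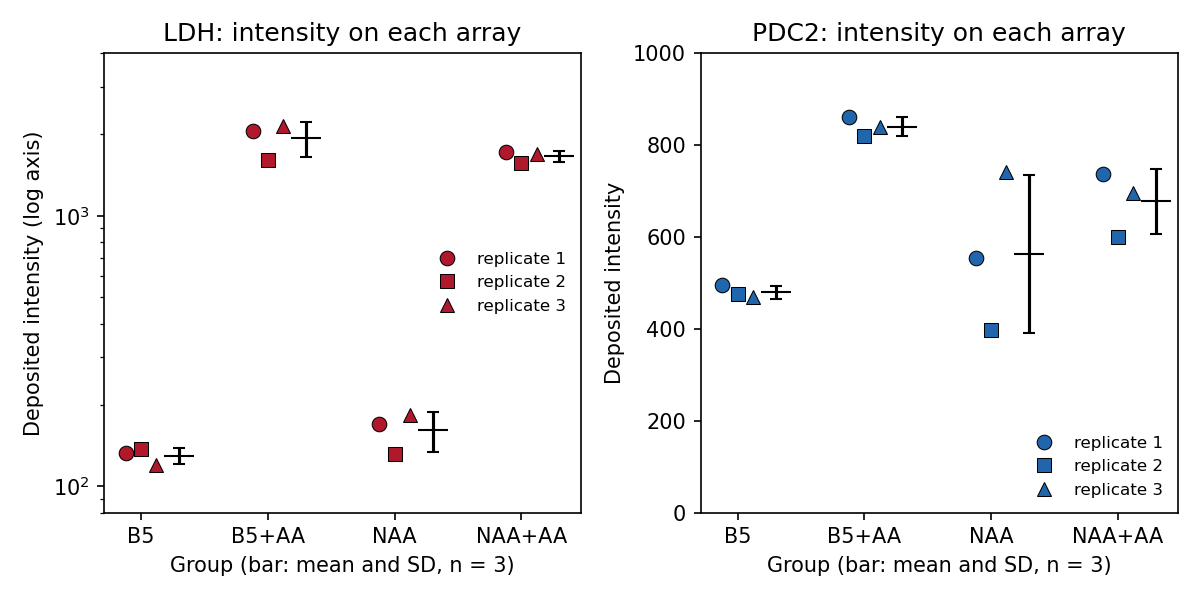
Deposited intensity of LDH (left, log axis) and PDC2 (right, linear axis from 0) on each of the 12 arrays by group, with symbols for the replicate number and bars for the mean and SD of 3 arrays. LDH forms a high pair of groups with antimycin A (1569.5 to 2145) and a low pair without it (119 to 183), and PDC2 spreads from 397 to 740.4 within the NAA group.

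The first comparison asked how antimycin A changed the 2 genes in seedlings on B5. LDH rose by a log2 fold change of 3.74 ± 0.13 (SE; 95% interval 3.44 to 4.03, limma adjusted p = 2.47e-07). Only 92 probe sets on the array, or 0.404%, had a higher log2 fold change. PDC2 rose by 0.79 ± 0.18 (95% interval 0.38 to 1.19, limma adjusted p = 0.00779), and 1630 probe sets (7.17%) had a higher log2 fold change. Calls were common in this comparison, since 14.3% of all probe sets were called higher and 18.7% lower, and 60.7% had groups that did not overlap, as both genes did. The call of PDC2 is therefore shared with a large part of the array, and the size of LDH's rise with few probe sets.

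The second comparison asked the same for seedlings on NAA. LDH rose by 3.25 ± 0.13 (SE; 95% interval 2.95 to 3.54, limma adjusted p = 7.35e-07), with a higher log2 fold change for 69 probe sets, or 0.303%. PDC2 had a log2 fold change of 0.30 ± 0.18 (95% interval -0.11 to 0.70, limma adjusted p = 0.3), an interval that holds 0 and overlaps that of PDC2 on B5 (0.38 to 1.19). Of all probe sets 11.6% were called higher and 13.2% lower here, and 36.1% did not overlap between the groups, among them LDH but not PDC2. The outcome for PDC2 turned on single untreated NAA arrays. Without NAA replicate 3, the highest, PDC2 was called higher (0.51, limma adjusted p = 0.0226), and without NAA replicate 2, the lowest, its log2 fold change was 0.074 (limma adjusted p = 0.686).

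The next pair of comparisons asked what 3 days of NAA did to the 2 genes without and with antimycin A. Without antimycin A, LDH had a log2 fold change of 0.28 ± 0.13 (SE; 95% interval -0.02 to 0.57, limma adjusted p = 0.194) and PDC2 one of 0.18 ± 0.18 (-0.22 to 0.59, limma adjusted p = 0.558). Neither was called, where 10.7% of all probe sets were called higher and 9.67% lower, and their groups overlapped, unlike those of 39.3% of all probe sets. LDH was called higher without NAA replicate 2 (0.41, limma adjusted p = 0.0486), and PDC2 had a value of -0.032 without NAA replicate 3. With antimycin A, LDH had a log2 fold change of -0.21 ± 0.13 (-0.51 to 0.08, limma adjusted p = 0.306) and PDC2 one of -0.31 ± 0.18 (-0.72 to 0.10, limma adjusted p = 0.275). Again neither was called, where 12.2% of all probe sets were called higher and 9.74% lower. The groups of LDH overlapped, and those of PDC2 did not, as for 40.7% of all probe sets.

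The last comparison tested whether the antimycin A effect itself differed between the media. For LDH the effect on NAA minus that on B5 was -0.49 ± 0.19 on the log2 scale (95% interval -0.91 to -0.07). Its unadjusted p was 0.0271, and it did not pass adjustment over all probe sets (limma adjusted p = 0.153). For PDC2 the difference was -0.49 ± 0.25 (-1.07 to 0.08, limma adjusted p = 0.317), and it was called without NAA replicate 2 (-0.71, limma adjusted p = 0.0362). Both estimates were below 0 and nearly equal, on the same 12 arrays, and neither difference was called, where 5.14% of all probe sets were called higher and 4.39% lower. The log2 fold change of LDH exceeded that of PDC2 by 2.95 on B5 and by 2.95 on NAA.

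**Figure D2:**
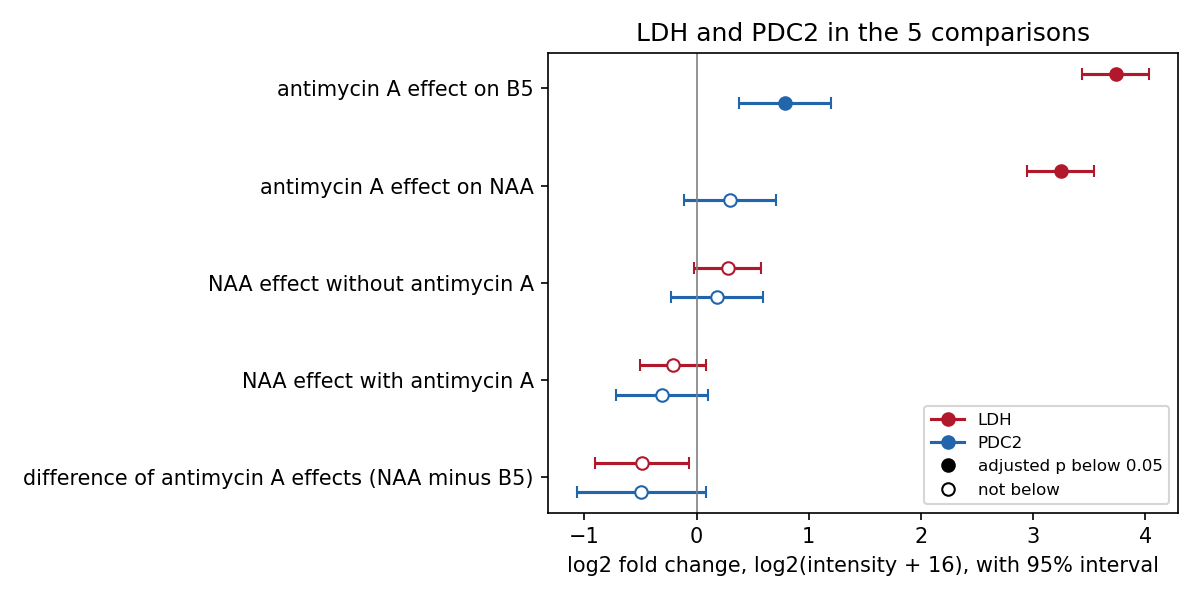
Log2 fold changes of LDH and PDC2 in the 5 comparisons, with 95% intervals from the limma fit of 12 arrays and filled symbols for an adjusted p below 0.05. LDH stands at 3.74 and 3.25 under antimycin A, PDC2 at 0.79 on B5 is the only other called value, and the intervals of the remaining values hold 0, except that of LDH for the difference (-0.91 to -0.07).

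The spread of PDC2 on NAA was large for its group. Its coefficient of variation was 30.5% over the untreated NAA arrays, against 2.95% on B5, 2.53% on B5+AA and 10.3% on NAA+AA. Of the 7859 probe sets with a mean of at least 100 on NAA, 228 (2.9%) had a larger SD of log2 values over these arrays. For LDH 1929 of them (24.5%) had a larger one. LDH shared the order of the NAA arrays with PDC2, with replicate 3 highest and replicate 2 lowest, as did 18.8% of all probe sets. What set the NAA arrays apart for PDC2 was not tested.

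**Figure D3:**
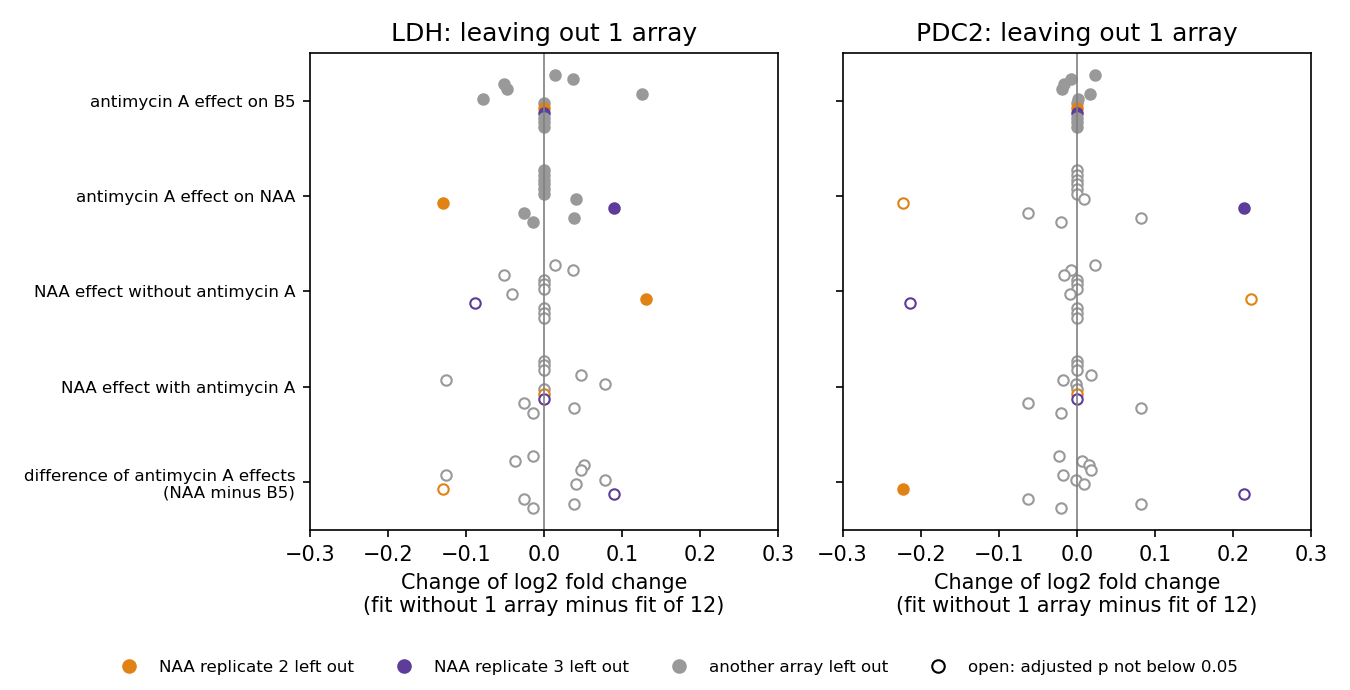
Shift of the log2 fold change of LDH (left) and PDC2 (right) when 1 of the 12 arrays was left out, for each comparison, with open symbols where the adjusted p was not below 0.05. The widest shifts of PDC2 come from NAA replicates 2 and 3, which move its antimycin A effect on NAA from 0.30 to 0.074 or 0.51.

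Since whole seedlings were sampled, fewer cells of a type and less RNA per cell cannot be told apart, and markers of tissues moved with the treatments. LDH rose while root markers fell. The summed intensity of 5 measured root markers, among them the root hair expansins EXPA7 and EXPA18 and the root beta-glucosidase PYK10, was 7672 to 9989 on B5 and 2201 to 2982 with antimycin A, and 8656 to 10611 on NAA and 3435 to 4442 with antimycin A. PYK10 made up most of this sum, with means of 6971 (B5), 2354 (B5+AA), 6144 (NAA) and 3404 (NAA+AA). The mean sums were 8515, 2631, 9775 and 4061 in the same order. PYK10 was not called with NAA alone. All 5 fell with antimycin A on both media, where 18.7% (B5) and 13.2% (NAA) of all probe sets were called lower, and 3 of 5 rose with NAA alone, where 10.7% were called higher. EXPA7 was lowest, with means of 4.99 on B5+AA and 8.2 on NAA+AA. The lower quartiles of these arrays were 6.47 to 7.16, so EXPA7 was near the floor and its presence there is not shown. The summed intensity of 5 photosynthetic markers was 45366 to 46020 on B5, 26764 to 32660 on B5+AA, 29459 to 31940 on NAA and 11762 to 16745 on NAA+AA. Markers of both tissues were thus read in every group, for roots mainly PYK10. The part of tissue make-up in the values of LDH and PDC2 was not tested. The reference genes PEX4 (UBC21), AT4G34270 and AT2G28390 were not called by limma in any of the 5 comparisons, with at most 1 of the 3 at an unadjusted p below 0.05 in each. All 3 had log2 fold changes above 0 with NAA, however. In the same order these were 0.14, 0.09 and 0.24 without antimycin A, and 0.08, 0.27 and 0.14 with it.

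Next to fermentation stand enzymes that use its products or compete for pyruvate. Of 6 loci listed for lactate and ethanol fermentation, LDH and PDC2 have a probe set of their own, and the others are not analysed here. Of 11 loci listed for neighbouring steps 3 have one. ALDH2C4, an aldehyde dehydrogenase known for oxidising coniferaldehyde and sinapaldehyde, read 1266, 1281 and 1416 on B5 and 2438, 2553 and 2292 with antimycin A, a rise of 0.87 on the log2 scale (limma adjusted p = 0.000103). On NAA it read 1714, 1759 and 1681 without antimycin A and 2396, 1814 and 1927 with it (0.24, limma adjusted p = 0.102). It rose with NAA alone (0.38, limma adjusted p = 0.0203), a call that was not made without B5 replicate 1 or 2 or without NAA replicate 1 or 2. Its antimycin A effect was smaller on NAA by 0.63 ± 0.13 (SE; limma adjusted p = 0.0196), a difference that was called, though not with array weights. ALDH2C4 thus had the same signs as LDH and PDC2 in all 5 comparisons, which the other measured loci of neighbouring steps did not. Loci of the glycolysis, low-oxygen and retrograde lists below had these signs too, among them AT5G56350, AT4G24110 and AT5G51440. The share of all probe sets with these signs was not counted.

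ACS, the acetyl-CoA synthetase that turns acetate into acetyl-CoA, was not called in any comparison (log2 fold changes of 0.29 and -0.12 with antimycin A on B5 and NAA). It read 601, 688 and 695 on B5 and 851, 706 and 889 with antimycin A, groups that did not overlap but were not called (limma adjusted p = 0.0619). The locus AT5G06580 had values of 0.03 and -0.07 with antimycin A and was called lower with NAA among treated seedlings (-0.30, limma adjusted p = 0.0482), which 11 of 22 alternatives did not call.

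Glycolysis supplies the pyruvate that LDH and PDC2 use. Of 39 listed loci, 14 have a probe set of their own, of which 3 rose and 5 fell with antimycin A on B5, where 14.3% of all probe sets were called higher and 18.7% lower. The median log2 fold change was -0.01, against 0.01 over all probe sets. Some of the 14 loci stood at the array floor in every group, with group means of 3.46 to 4.65. They cannot show a fall, count as not called, and draw the medians of this list under antimycin A towards 0. The locus AT5G56350 rose from 353 ± 49.0 to 2198 ± 304 (SD, n = 3; log2 2.58, limma adjusted p = 9.64e-06) and AT1G76550 by 1.06, while ALDH11A3, a non-phosphorylating glyceraldehyde-3-phosphate dehydrogenase, fell by 1.49 and AT5G42740 by 0.73. TPI, triosephosphate isomerase, rose by 0.34, which was not called without B5 replicate 1 or 3 or without B5+AA replicate 1 or 3. GAPC2, a cytosolic glyceraldehyde-3-phosphate dehydrogenase, fell by 0.30, a fall that 10 of 22 alternatives did not call. The enolase ENOC was not called (-0.02). The list was thus divided in direction, and none of its measured loci rose as much as LDH.

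On NAA 3 glycolysis loci rose and 3 fell with antimycin A (median -0.07, all probe sets 0.01), where 11.6% of all probe sets were called higher and 13.2% lower. AT5G56350 rose by 1.77 and AT1G76550 by 0.61, whereas ALDH11A3 fell by 1.69 and AT1G20950 by 0.57. With NAA alone 5 rose and 1 fell (10.7% and 9.67% of all probe sets), led by AT5G08570 (0.70), AT1G20950 (0.64), AT1G12000 (0.61) and AT5G63680 (0.58). Among treated seedlings 3 rose and 1 fell with NAA (12.2% and 9.74% of all probe sets), namely AT5G08570 (0.94), AT1G20950 (0.68) and AT5G63680 (0.55), and ALDH11A3 (-0.62). The glycolysis loci that moved with NAA did so by less than 1 log2 unit. For the difference of the antimycin A effects limma called 0 glycolysis loci, with 1 higher and 2 lower at an unadjusted p below 0.05. Of all probe sets 5.14% were called higher and 4.39% lower for this difference.

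Pyruvate can instead enter the mitochondrion and be used by the pyruvate dehydrogenase complex. Of 13 listed loci 6 have a probe set of their own. With antimycin A 1 of them fell on B5 (AT1G54220, -0.49, not called by 6 of 22 alternatives) and 0 were called by limma on NAA, with 0 higher and 2 lower at an unadjusted p below 0.05. Of all probe sets 14.3% were called higher and 18.7% lower on B5, and 11.6% and 13.2% on NAA. MAB1, the beta subunit of the complex's first enzyme, had log2 fold changes of -0.03 and 0.02, and LTA3, an acetyltransferase subunit, -0.08 and 0.04. With NAA alone AT4G22310 rose by 0.27 (not called by 2 of 22 alternatives), and among treated seedlings LTA3 (0.40), MAB1 (0.30, not called by 11 of 22 alternatives) and AT4G22310 (0.25, not called by 4 of 22, and 0.13 with each array centred on its median) rose. Of all probe sets 10.7% were called higher with NAA alone and 12.2% with NAA among treated seedlings. None of the 6 was called higher with antimycin A on either medium by limma. With 6 loci this cannot be told apart from the shares of all probe sets. AT4G14695 was also near the array floor on B5, B5+AA and NAA+AA (means of 7.34, 7.39 and 7.08).

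Fermentation genes belong to the set that plants raise at low oxygen, and 35 further loci of that response were listed, of which 17 have a probe set of their own. With antimycin A on B5 5 rose and 3 fell, where 14.3% of all probe sets were called higher and 18.7% lower (median -0.10, all probe sets 0.01). CML38, a calmodulin-like protein, rose from 123 ± 58.8 to 929 ± 442 (SD, n = 3; log2 2.76, limma adjusted p = 0.000374), AT4G24110 by 2.20 and AT1G26270 by 1.83, and AT1G74940 fell by 1.53. On NAA 7 rose and 3 fell, against 11.6% and 13.2% of all probe sets (median 0.78, all probe sets 0.01), led by CML38 (2.49), AT4G24110 (1.73), AT1G26270 (1.48) and AT1G19530 (1.44). On this scale all of these stood below LDH on the same medium, but AT4G24110, dim at 4.57 ± 0.827 on B5 and 87.4 ± 56.3 on B5+AA (SD, n = 3), passed LDH on B5 when nothing was added to the intensities (log2 4.09 against 3.89).

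Low-oxygen loci moved with NAA too, where LDH and PDC2 were not called. With NAA alone 6 rose and 0 fell by limma (1 lower at an unadjusted p below 0.05), where 10.7% of all probe sets were called higher and 9.67% lower, among them AT4G27450 (1.57), AT1G19530 (1.41), AT4G33560 (0.97, not called by 4 of 22 alternatives) and AT3G27220 (0.74). Among treated seedlings 8 rose and 1 fell, against 12.2% and 9.74% of all probe sets, and the largest values were those of AT4G27450 (3.23), AT4G10270 (2.89), AT1G19530 (2.5) and AT4G33560 (1.49). AT4G27450 read 40.8 ± 6.19 on B5+AA and 542 ± 198 on NAA+AA (SD, n = 3), whereas LDH and PDC2 had values below 0 in that comparison. Of the list, AT1G33055 was called for the difference of the antimycin A effects (1.00 ± 0.14, SE; limma adjusted p = 0.00327), opposite in sign to the values of LDH and PDC2. At an unadjusted p below 0.05, 7 of the 17 were higher for this difference and 0 lower. The number of the list called for it was not stable. It ran from 1 to 7 over 9 alternatives besides leaving out an array, of which 3 kept it at 1. The number was 3 without NAA+AA replicate 1 and 7 when dim probe sets were left out. AT1G33055 read 8.86 to 13.9 on all B5 and B5+AA arrays, 13.8 to 19.4 on NAA and 45.3 to 54.2 on NAA+AA. Most loci of the list were dim, with a mean intensity below 100 in some group, where the added 16 lowers the fold. AT3G10040 (group means of 5.45 to 8.22) and AT5G10040 (8.49 to 12.9) stood near the array floor in every group. They had little room to fall and count as not called.

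**Figure D4:**
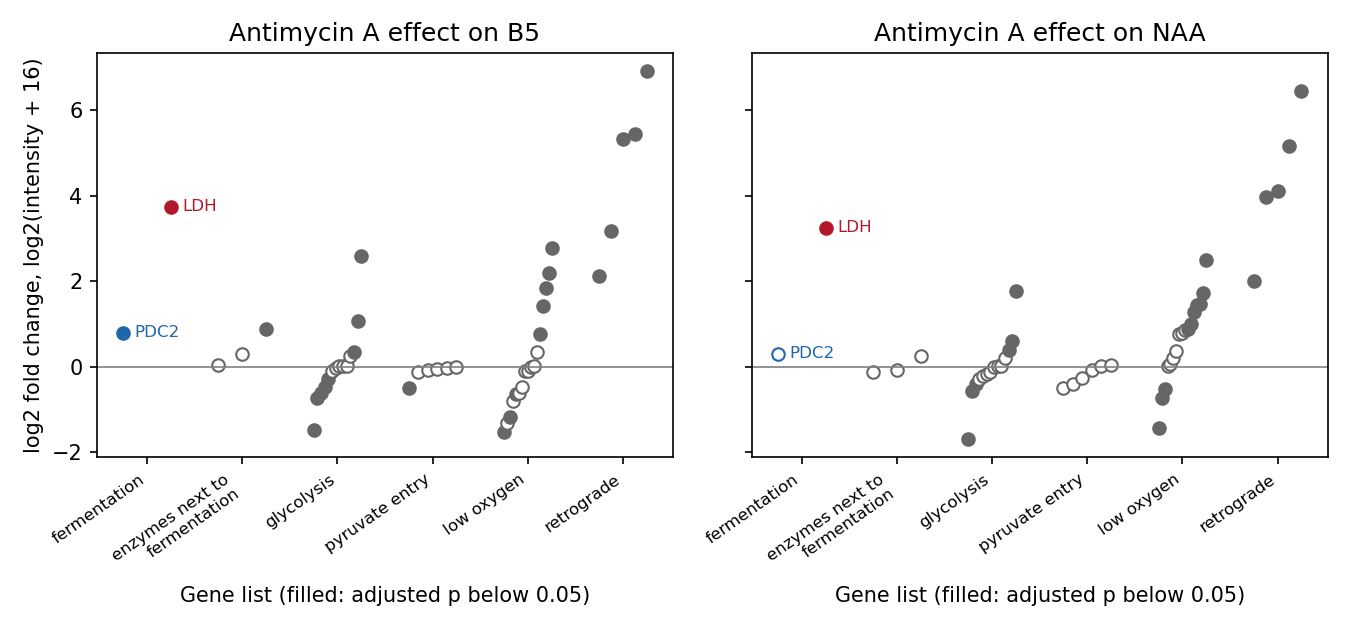
Log2 fold change with antimycin A on B5 (left) and on NAA (right) of each measured locus of 6 lists, ordered by value within a list, with filled symbols for an adjusted p below 0.05. On this scale LDH (3.74 and 3.25) stands above all loci of the glycolysis, pyruvate entry and low-oxygen lists and among the 5 retrograde loci, and PDC2 (0.79 and 0.30) stands above the pyruvate entry loci, within the glycolysis and low-oxygen lists and below the retrograde loci. Without the added 16 the low-oxygen locus AT4G24110 stands above LDH on B5.

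The mitochondrial retrograde response, nuclear genes known to react to impaired mitochondria, gave a yardstick for LDH. All 5 measured loci of that list (8 were listed) rose with antimycin A on both media, where 14.3% and 11.6% of all probe sets were called higher, with medians of 5.31 on B5 and 4.11 on NAA. LDH lay between NDB2, which oxidises cytosolic NAD(P)H at the mitochondrial inner membrane (2.12 and 2.01), and AT2G21640 (5.45 and 5.16). AT5G09570 (3.18 on B5 and 4.11 on NAA) stood above LDH on NAA, and its place on B5 turned with the pseudocount, since its log2 fold change there was 4.30 with nothing added against 3.89 for LDH.

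The genes most like each of the 2 over the 12 arrays were sought among 4776 probe sets of 1 gene with a mean of at least 100 in some group, by Pearson correlation of log2(intensity + 16), as a description of arrays that share treatments. For LDH 226 probe sets had a correlation over 0.95. The 5 closest were the glycosyltransferase UGT73B4 (0.996), AT2G04050 (0.996), AT1G69680 (0.996), AT5G14730 (0.995) and AT2G47010 (0.995). The choice by correlation fixed their shared shape but not their size. Their log2 fold changes with antimycin A on B5 ran from 2.59 for AT1G69680 to 6.35 for AT2G04050, with LDH in between. All 5 had means below 100 without antimycin A (9.6 to 71.7 on B5), so they entered the search only through treated groups. At such low intensities the added 16 lowers the fold. For PDC2 no probe set exceeded 0.95, and the closest were AT4G17650 (0.948), AT3G28940 (0.927), AT5G67630 (0.923), AT4G34180 (0.914) and AT5G47070 (0.912). Their log2 fold changes with antimycin A ran from 0.72 (AT5G67630) to 1.33 (AT4G34180) on B5 and from 0.44 (AT5G67630) to 0.93 (AT4G34180) on NAA, with PDC2 within that range on B5 and below it on NAA. AT4G17650 and AT5G67630 had means below 100 without antimycin A (69.0 and 92.3 on B5, 81.8 and 96.9 on NAA). They too entered the search only through treated groups. Without them the lowest value on B5 was 0.83 (AT5G47070), above that of PDC2 (0.79). LDH and PDC2 correlated at 0.815 with each other, and 706 other candidates were more like LDH than PDC2 was.

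**Figure D5:**
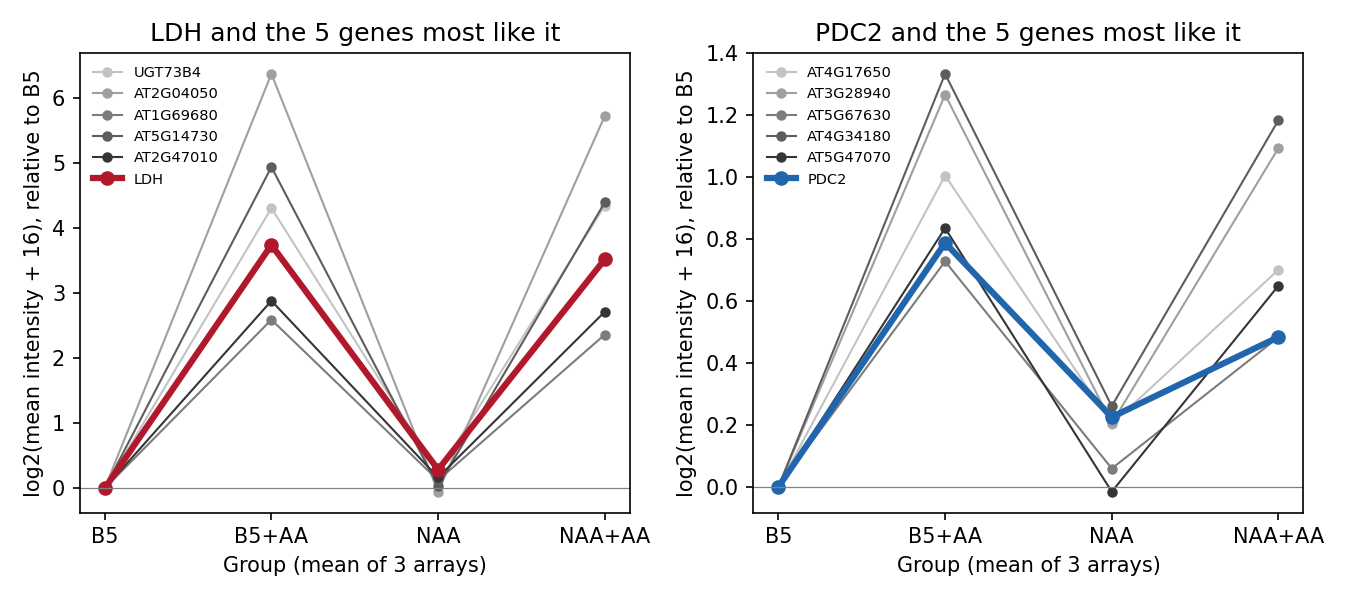
Group means of LDH (left) and PDC2 (right) with the 5 genes most like each, as log2(mean intensity + 16) relative to the B5 group. The profiles of the LDH panel rise with antimycin A on both media and return near 0 on NAA alone, and in the PDC2 panel the NAA+AA means lie below the B5+AA means.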

How the data were processed

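Arrays of 12 seedling samples were analysed. The table deposited by the authors holds linear intensity values by probe set, and all 12 columns were matched to samples by name. Per the submitters' processing notes, MAS5, RMA and Partek were used, with no role or version, and the step that made the deposited intensity values is not stated there. Array medians of 33.7 to 39.7 differed more between media than the quartiles did, so small NAA effects depend on scaling. Detection calls are not used here, and the number of arrays limits the precision.

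The 64 control rows among 22810 were dropped. Genes came from the array's annotation table (13513 probe sets of 1 gene, 503 of several, 8730 unnamed here), with symbols from RefSeq TAIR10.1. Where a gene had more than 1 probe set the brightest was used. limma 3.58.1 in R 4.3.3 was fitted to log2(intensity + 16) of 12 arrays, with 1 mean per group (8 residual degrees of freedom), 5 contrasts and Benjamini-Hochberg adjustment. The fit was tested on simulated data. The alternatives were other pseudocounts, scalings, filters, variance models, a replicate block and leaving out each array. LDH, PDC2 and the gene lists were chosen with earlier results of these data known. Named were all measured fermentation and neighbouring genes, up to 4 called members per other list and comparison, and 5 most similar genes; GAPC2, TPI, ENOC, the antimycin A values of MAB1 and LTA3, and PSAE-1 were added after their values were seen. No sequences are shown.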

Additional observations from a re-analysis of the deposited data

Results flagged for a closer look

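The limma test of the difference of the antimycin A effects called 5 measured members of the lists set beside LDH and PDC2. It called 1 of 3 loci of neighbouring steps, 1 of 17 low-oxygen loci (1 to 7 over the alternatives) and 1 of 5 retrograde loci. Of the markers it called 1 of 5 for roots and 1 of 5 for photosynthesis. It called 0 of 14 glycolysis loci, 0 of 6 pyruvate entry loci and 0 of 3 reference genes. Of all probe sets 5.14% were called higher and 4.39% lower. Whether calls were more common in the lists than on the whole array was not tested. For ALDH2C4 the log2 effect on NAA was lower than on B5 by 0.63 (log2 difference -0.63, limma adjusted p = 0.0196). For AT1G33055 of the low-oxygen list it was higher by 1.00 (limma adjusted p = 0.00327), on intensities of 8.86 to 54.2. For AT5G51440 of the retrograde list the difference was -1.35 (limma adjusted p = 0.0143), with means of 32.3 and 1894 on B5 and 40.1 and 863 on NAA, without and with antimycin A. For the root marker EXPA7 the difference was -1.58 (limma adjusted p = 0.00754), with means of 28.6 and 4.99 on B5 and 137 and 8.2 on NAA, without and with antimycin A. Both treated means were near the array floor, so the lower start on B5 left less room for a fall. For the photosynthetic marker PSAE-1 the difference was -0.72 (limma adjusted p = 0.00524). Neither LDH nor PDC2 was called for this difference.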

How the results depend on the processing

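Of 218 values of LDH and PDC2 under alternative settings, 214 kept their direction and their side of the threshold, among them every value of the antimycin A effect on LDH (log2 2.94 to 3.89 over both media) and of that on PDC2 on B5 (0.73 to 0.81). The other 4 came from leaving out 1 NAA array. Over the 12 such fits the NAA effect without antimycin A ran from 0.19 to 0.41 for LDH and from -0.032 (reversed, without NAA replicate 3) to 0.41 for PDC2. The antimycin A effect on NAA ran from 0.074 to 0.51 for PDC2, and its difference between the media from -0.71 to -0.28. Centring each array on its median shifted all NAA effects by -0.09 without and -0.12 with antimycin A, and the probe sets called went from 4637 to 12002 and from 4994 to 13365, with 17.8% of the calls higher in both, against 52.6% and 55.6% as deposited. The calls of LDH and PDC2 were the same under it. Same-numbered replicates share only a number: 5 of 18 pairs of arrays had deviations that correlated above 0.1, and 6 of 12 arrays correlated best with their own number. The replicate block changed no call of LDH or PDC2 (PDC2 on B5, adjusted p = 0.00793 by limma), and called 7537, 5683, 4627, 5012 and 2159 probe sets in the 5 comparisons. The number of low-oxygen loci called for the difference of the antimycin A effects stayed at 1 in 3 of 9 alternatives besides leaving out an array. Leaving out probe sets with no group mean of at least 50 moved it from 1 to 7. The log2 fold changes of the loci kept do not change in that fit. Only the variance estimate shared over probe sets and the number of tests adjusted for do, and their parts were not tested. Of 115 calls of list and marker members, 27 were lost in at least 1 alternative.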
